A study of Mus musculus with 16 samples.

Results

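The numbered zinc finger protein mRNAs are the transcripts of mouse genes named Zfp followed by a number, and 204 of them were described here in macrophage-like cells exposed to lipopolysaccharide (LPS). The table of counts per gene held 13832 genes, of which 298 carried such a name. Zfp36, a decay factor of cytokine mRNAs with fingers of another type, and Zfp811 were left out by name, and 92 genes had fewer than 30 untreated input counts, which left the 204 members. The untreated input count thus chose the members and is also the starting point of every change in input. Zfp661, Zfp738, Zfp94 and Zfp949 lay just inside the threshold with 30 counts each, and Zfp759 and Zfp959 with 27 counts and Zfp566 with 26 counts lay just outside it. A filter on low values, at least 10 counts in at least 4 of 8 libraries of each material, left 194 of the 204 members among 9529 genes tested.

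Most of these genes encode proteins with tandem C2H2 zinc fingers, in which a pair of cysteines and a pair of histidines hold a zinc ion and a short helix reads the bases of DNA. Many also carry a KRAB domain, which recruits the corepressor Trim28 (KAP1) and the histone methyltransferase Setdb1, and mouse KRAB zinc finger proteins are known for silencing retroelements and protecting imprinted loci. Their mRNAs are in general scarce and turn over fast. A profile search of the translated coding sequences found a KRAB domain in 115 of the 203 members with a gene model and none in 88. Chromosome 7 held 50 members and chromosome 17 held 29; both are known for tandem arrays of KRAB genes.

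The study used RAW264.7, a macrophage-like line from the mouse, in 8 states: untreated, and after 15, 30, 45, 60, 75 and 90 min and 16 h in 100 ng/ml LPS, the bacterial cell wall component that activates Toll-like receptor 4. Each lysate gave a library of ribosome footprints, the fragments that ribosomes shield from RNase I, and a library of input, cytoplasmic RNA broken by alkali, both cut to 25 to 35 nt. Each of these 16 groups was 1 library, with no replicate culture and no untreated culture taken at a later time, so time in culture and LPS cannot be told apart. All 16 totals lay between 6702930 and 6702932 counts. How these totals were made equal is unknown, so they do not show the depth of sequencing, and effective library sizes after scaling ranged from 5635194 to 7514922. Macrophage markers summed to 14048 to 17077 counts per input library over 7 genes, although Itgam among them had only 17 to 71, whereas 2 epithelial genes in the table (Krt8 and Cdh1) summed to at most 1 and 2 lymphocyte genes (Cd4 and Cd79a) to at most 5. Of the 4 fibroblast markers, none was in the table.

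The finger unit is what most of these mRNAs share in sequence. For each of the 2 largest early rises and the 2 largest early falls described below, 1 unit is shown. Each is 81 bases of coding DNA inside 1 coding exon, on the sense strand, and the capitals mark the codons of the 2 cysteines and 2 histidines that bind zinc.
Zfp263: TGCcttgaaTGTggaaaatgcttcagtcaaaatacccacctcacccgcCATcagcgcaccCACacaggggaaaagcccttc
Zfp420: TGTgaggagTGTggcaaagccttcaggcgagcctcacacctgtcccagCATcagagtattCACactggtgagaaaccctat
Zfp39: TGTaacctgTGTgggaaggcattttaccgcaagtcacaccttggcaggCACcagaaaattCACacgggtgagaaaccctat
Zfp324: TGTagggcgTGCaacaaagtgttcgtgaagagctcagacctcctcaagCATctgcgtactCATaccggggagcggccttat
In the GRCm38 genome these lie at chr16:3749128-3749208 (plus strand), chr7:29874447-29874527 (plus strand), chr11:58890624-58890704 (minus strand) and chr7:12970762-12970842 (plus strand). The units were picked by a pattern of fixed spacing, so the spacing of the capitals is the same in all 4 by choice. The bases between them differ. The 203 members with a gene model held 2230 fingers, counted with a pattern that allows looser spacing. The median was 10 per tested member, with a range of 0 to 36. Fingers were joined by 971 linkers of the classical type, written in 244 different DNA sequences. The commonest of these, ACTGGAGAGAAACCC, was found on the coding strand of 33 members (16.3%), against 110 of 21874 coding sequences of all genes (0.5%). Because fragments of 25 to 35 nt can match several such genes, the share of 29-base windows of each coding sequence found in no other gene was computed. In 18 of the tested members this share was under 70%, Zfp706, Zfp330, Zfp384, Zfp422, Zfp617 and Zfp808 among them, and their values are uncertain to that extent. Exons of 30 tested members overlap another gene on the opposite strand and those of 8 on the same strand, and no source used here states whether counting was by strand, so reads of such pairs cannot be told apart.

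The class was scarce. Untreated input counts had a median of 106 over the 204 members, with quartiles of 60.75 and 202.75 and a range of 30 to 4489, against a median of 275 over all genes tested. Together the 204 members took 0.501% of the input library at 16 h, against 0.591% of the untreated one, and 0.255% of the footprint library at 16 h, against 0.299% of the untreated one. Zfp106, an RNA-binding protein needed for motor neurons, stood far above the rest with 38634 input counts over the 8 libraries. Zfp91, a ubiquitin ligase of the non-canonical NF-kB pathway, had 11345 and Zfp207, a spindle assembly factor, 10511. At the other end Zfp94 had 105, Zfp235 149 and Zfp41 157.

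The zinc finger mRNAs carried few ribosomes for their input. Ribosome density is given as footprints per input, the ratio of the scaled counts of the footprint and input libraries of 1 lysate, so that the typical gene is near 1 and its log2 near 0. Over the 8 time points density was lower than that of the typical gene in 161 of 194 tested members (83.0%) and higher in 12, with a threshold of 0.05 on the adjusted p (edgeR quasi-likelihood test with the time point as a block, Benjamini-Hochberg adjustment over 9529 genes). Among all genes tested 85.2% were called, 41.5% lower and 43.7% higher. The members with KRAB, without KRAB and other genes of at least 30 counts had medians of -0.94, -0.75 and 0.03 (log2). The median density of the members was -0.90 on the log2 scale, 0.536 of the typical gene, and that of other genes was 0.04. Time points stood in for replicates in this test, and the 12 and 161 became 7 and 149 of 175 when members under 70% unique windows were left out.

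Members lay below other genes of like input in every bin of untreated input counts. In members with 30 up to 60 untreated input counts (upper limit not included) the median density was -0.81 (log2), against 0.02 in other genes of that bin. The medians were -0.96 in members and -0.03 in other genes at 60 up to 120 counts, -0.74 and -0.02 at 120 up to 240 counts, and -1.15 and 0.06 at 240 counts and over. The bin of the most abundant members had the lowest median of the 4. Input reads can come from the whole transcript while footprints come mainly from the coding part, so the comparison was repeated by the coding share of the transcript. The medians were -0.29 in members and 0.36 in other genes where at most 25% of the transcript was coding, -1.15 and 0.12 between 25% and 50%, -0.77 and -0.02 between 50% and 75%, and -0.99 and -0.19 above 75%. Members lay lower in each of these classes, the smallest of which held 16 of them.

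**Figure D1:**
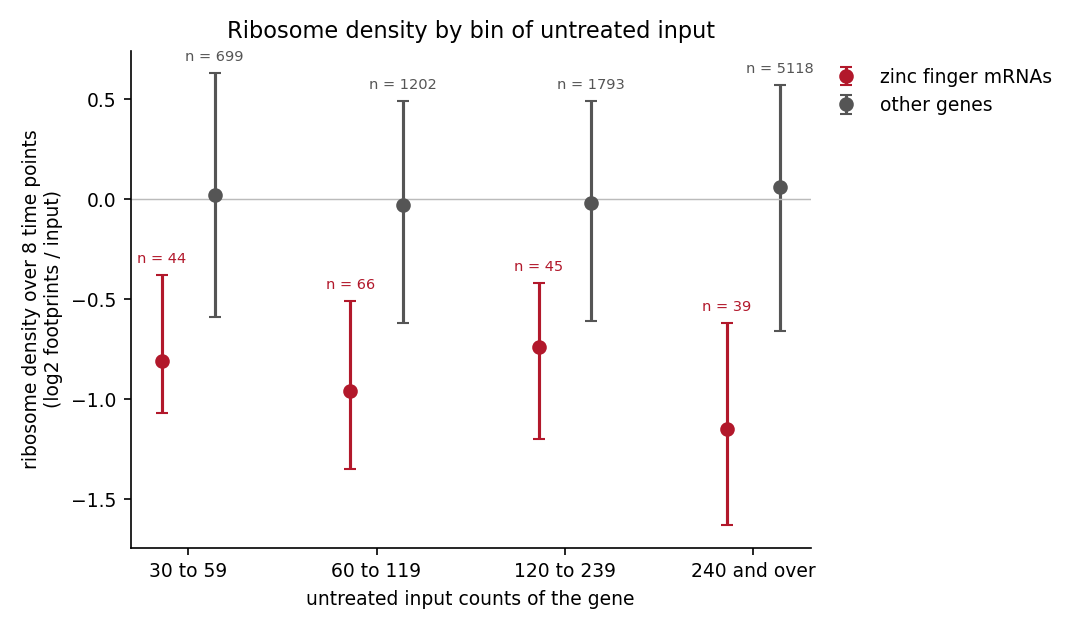
Median ribosome density over the 8 time points (log2 footprints per input, points) with quartiles (bars) for the zinc finger mRNAs (red) and other tested genes (grey), in 4 bins of untreated input counts. The members' medians lie between -0.74 and -1.15, those of other genes between -0.03 and 0.06.

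Members with many fingers had lower density than members with few. Members with 0 to 3 fingers had a median density of -0.23 (log2), with 7 higher and 11 lower of 22. The median was -0.67 over 32 members with 4 to 7 fingers, -1.03 over 58 with 8 to 11, -0.94 over 42 with 12 to 15 and -1.15 over 39 with 16 or more. None of the 81 members in the top 2 of these classes was called higher, and 73 were called lower. Of the 108 tested members with a KRAB domain, 93 were lower and 0 higher, and of the 85 without one, 67 were lower and 12 higher. With libraries scaled to total counts, which moved the median of all genes to -0.19, these were 105 and 0, and 71 and 8. No test of the difference between these classes was made.

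**Figure D2:**
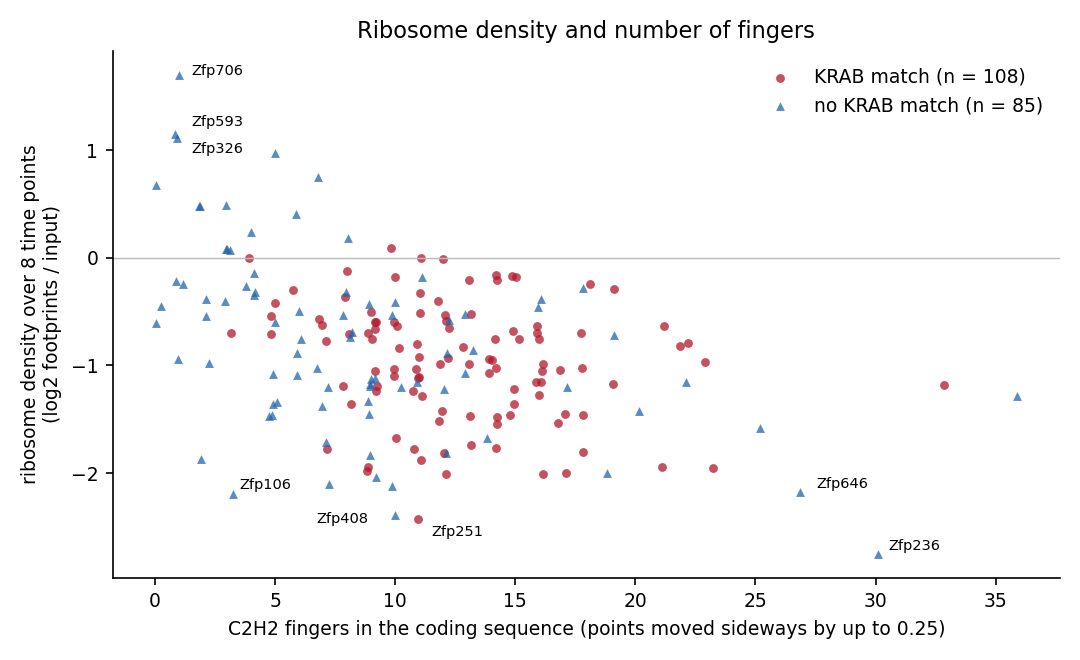
Ribosome density over the 8 time points (log2 footprints per input, vertical axis) of the tested members against the number of C2H2 fingers in their coding sequence (horizontal axis), for members with a KRAB match (red circles) and without (blue triangles). Members with 16 or more fingers, among them Zfp236 at -2.75, all lie below 0.

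The members with most ribosomes had few fingers, and several act outside DNA binding. Zfp706, with 1 finger and a repressor of Klf4 in mouse stem cells, had 998, 764, 781, 677, 576, 628, 620 and 362 footprints from untreated to 16 h, and 299, 264, 263, 234, 256, 241, 237 and 129 input counts. Footprints exceeded input in every one of these lysates, and its density was 1.70 ± 0.05 (log2, SE, adjusted p = 4.3e-15), although only 1.0% of its coding windows are unique to it. Zfp593, whose yeast homologue works in 60S ribosome export, had a density of 1.15 ± 0.08 (adjusted p = 5.3e-10) and Zfp326, of the DBIRD splicing complex, 1.11 ± 0.07 (8.1e-11). Zfp422 stood at 0.97 and Zfp143, an activator of snRNA promoters, at 0.75. Zfp622, a 60S biogenesis factor, and Zfp207 followed at 0.49 and 0.48. All of these values are from edgeR's quasi-likelihood test.

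Among the tested members, the lowest densities were those of Zfp236, Zfp251, Zfp408, Zfp106 and Zfp646. Zfp236, with 30 fingers, had 69, 51, 81, 65, 49, 54, 60 and 66 footprints from untreated to 16 h, against 480, 506, 531, 504, 459, 465, 467 and 464 input counts. Its density of -2.75 ± 0.07 (log2, adjusted p = 5.0e-16) was 6.74 times lower than that of the typical gene, and footprints per input stayed between 0.11 and 0.18 in every lysate. Zfp251 stood at -2.43, Zfp408, whose human counterpart is linked to retinal disease, at -2.39, Zfp106 at -2.19 and Zfp646, with 27 fingers, at -2.18. Zfp106 holds only 3 fingers, and its density was low while its input, 4323 to 5125 counts in a library, was the highest of the class. All 5 were called by edgeR's quasi-likelihood test in each of the settings tried.

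Other members with a known function lay between these ends. The ubiquitin ligase Zfp598, which senses collided ribosomes, had a density of -0.94 (log2) and Zfp91 one of -1.34. Zfp445 and Zfp809, KRAB proteins that protect imprints and silence murine leukaemia virus, stood at -1.81 and -0.62. Zfp687 and Zfp592, partners of each other and of Zmynd8, had -1.13 and -0.74, the chromatin regulator Zfp335 -0.86, and Zfp410, an activator of Chd4, -0.60. Values nearer to 0 were those of the SUMO ligase Zfp451 (-0.43), Zfp281 (-0.40), the double-stranded RNA binding protein Zfp346 (-0.35), the corepressor subunit Zfp217 (-0.32), the splicing-associated Zfp830 (-0.24) and the GC-box factor Zfp148 (-0.14). All of them passed edgeR's quasi-likelihood test, but Zfp148 lost the call without the 75 min libraries (adjusted p = 0.059) or without the filter on low counts (0.083), and Zfp217 without the time point as a block (0.11). Zfp384 was called slightly higher at 0.18, and lost the call without the 60 min, 75 min or 16 h libraries (adjusted p = 0.067 to 0.084). Zfp341, a transcription factor of the Stat3 gene, had fewer than 30 untreated input counts, and Zfp638, Zfp395 and Zfp57 were not analysed here.

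The 10 untested members, Zfp235, Zfp329, Zfp605, Zfp661, Zfp672, Zfp709, Zfp72, Zfp738, Zfp810 and Zfp94, dropped out because at most 3 of their 8 footprint libraries reached 10 counts. Their footprints per input, summed over the 8 lysates, ranged from 0.0662 in Zfp329 to 0.656 in Zfp94. Zfp329 had 174, 139, 95, 66, 76, 111, 102 and 89 input counts from untreated to 16 h, but only 3 to 9 footprints in any library. The filter thus removed members with few footprints, and the counts above do not cover them.

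In the first 90 min of LPS, zinc finger mRNAs fell more often than they rose. A curve, quadratic in minutes, was fitted to each gene over 0 to 90 min, and its size is the largest excursion from 0 min. Of 194 tested members, 22 rose and 53 fell in input (edgeR quasi-likelihood test, Benjamini-Hochberg adjustment over all genes), where 26.2% of all genes were called, 14.9% up and 11.3% down, so 27.3% of the members fell. The median size was -0.31 (log2) in the members and -0.03 in other genes. At 30 up to 60 untreated input counts it was -0.59 in members and -0.30 in other genes. The medians were -0.47 and -0.21 at 60 up to 120 counts, -0.09 and -0.11 at 120 up to 240, and 0.16 and 0.07 at 240 and over. By median, members thus lay lower than other genes of like input only below 120 counts. The scatter about the curve is the only error this design offers, and since libraries are scaled to each other, less of an mRNA means less relative to the rest, with fewer cells and less RNA per cell not told apart. Without the 75 min library 12 members rose and 31 fell, against 10.6% of all genes up and 7.12% down.

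Of 108 members with a KRAB match 7 rose and 36 fell in early input (33.3%), with a median of -0.49, and of 85 without one 15 rose and 17 fell (20.0%), with a median of -0.08. No test of this difference was made. Zfp263 and Zfp420, the 2 largest early rises, count as members without KRAB because the longest coding transcript gave no match, and other transcripts were not searched. Among members with 60 up to 120 untreated counts, 23 of 45 with KRAB fell (51.1%) and 5 of 20 without, against 13.3% of other genes in that bin. The bins beside it differed less. At 30 up to 60 counts 5 of 30 with KRAB fell (16.7%) and 1 of 14 without, against 11.7% of other genes. At 120 up to 240 counts 7 of 23 with KRAB fell (30.4%) and 5 of 22 without, against 13.8%. At 240 counts and over, 11 of the 39 members rose and 7 fell, against 18.4% and 9.95% of other genes. The order of the classes turned there, with 1 of 10 KRAB members lower (10.0%) and 6 of 29 without KRAB (20.7%). Without the 75 min library the counts were 3 rises and 20 falls with KRAB (18.5% lower). Those without KRAB were 9 and 11 (12.9%), against 7.12% of all genes lower. Without the 15 min library the counts were 4 and 24 with KRAB (22.6%). Those without KRAB were then 12 and 10 (12.0%), against 8.48% of all genes lower. DESeq2 called 5 and 17 with KRAB (15.7% lower) and 11 and 10 without KRAB (11.8%), against 6.54% of all genes lower. With libraries scaled to total counts, which moved the median of all genes to -0.17, 37.0% with KRAB and 24.7% without KRAB fell, against 19.6% of all genes.

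Relative to untreated, the median input of KRAB members was -0.03 at 15 min, -0.02 at 30 min, -0.26 at 45 min, -0.38 at 60 min, -0.32 at 75 min, -0.28 at 90 min and -0.32 at 16 h (log2). Members without KRAB kept a median between -0.04 and 0.04 up to 90 min and had -0.22 at 16 h. Other genes with 30 up to 240 untreated counts drifted to -0.10 at 90 min and had 0.01 at 16 h. The step in the KRAB median thus fell between the 30 and 45 min libraries. The fitted excursion was largest at 90 min in 40 of the 53 members that fell and in 16 of the 22 that rose. A fitted curve that does not turn back is largest at the last time by construction, so these counts do not date the changes.

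**Figure D3:**
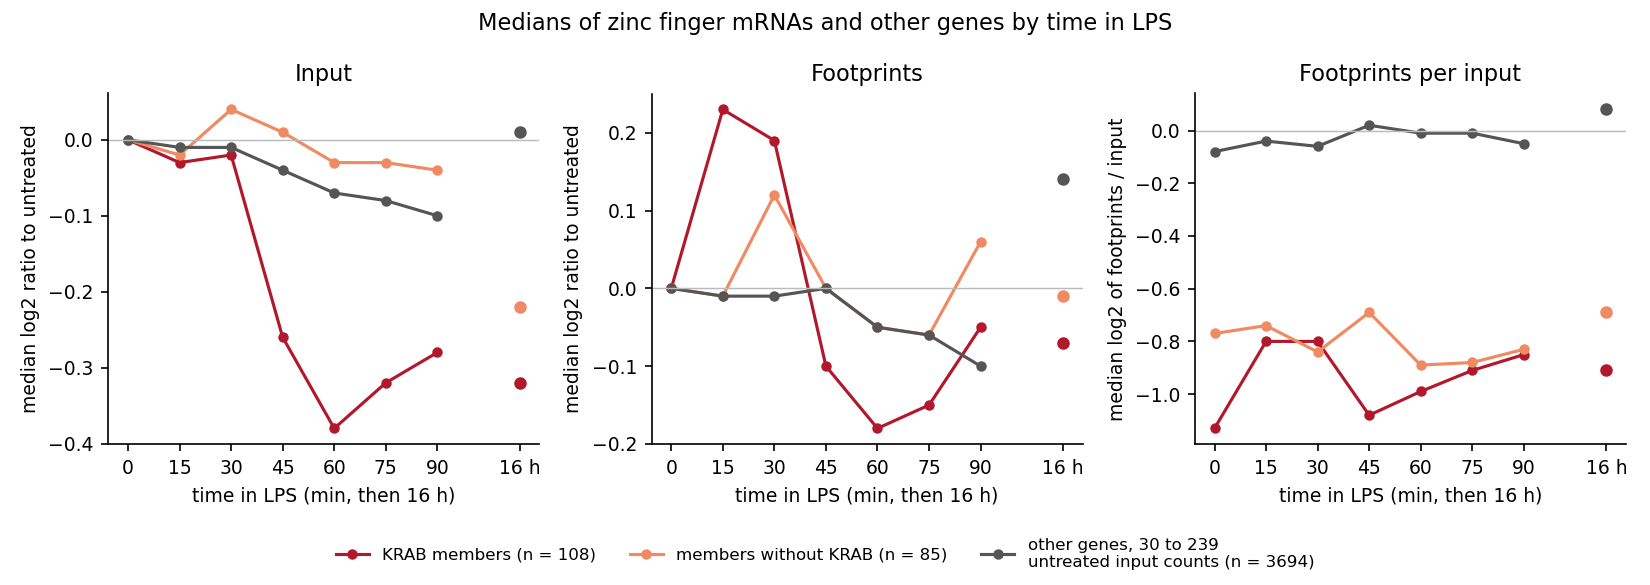
Median log2 ratio to untreated in input (left) and footprints (middle), and median log2 footprints per input (right), by time in LPS, for tested members with KRAB (red), members without KRAB (orange) and other genes with 30 up to 240 untreated input counts (grey). In input the red line drops to -0.26 at 45 min and -0.38 at 60 min, while in the right panel both member lines stay far below the grey one.

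In footprints 17 of 194 members rose and 22 fell (edgeR quasi-likelihood test), against 12.2% and 8.30% of all genes (20.5% either way). The median size was -0.29 (log2) in members and -0.06 in other genes. At 30 up to 60 untreated input counts it was -0.64 in members and -0.24 in other genes. The medians were -0.43 and -0.20 at 60 up to 120 counts, -0.13 and -0.12 at 120 up to 240, and 0.06 and 0.04 at 240 and over. In KRAB members 5 rose and 11 fell, and in the others 12 rose and 11 fell. Of the 194, 14 (7.22%) rose in both materials and 17 (8.76%) fell in both, against 8.89% and 5.39% of all genes, and 0 were called in opposite directions, against 0.357%. The medians by time did not move alike in the 2 materials. At 15 min the members' median was 0.14 in footprints, with 122 of 194 above untreated, and -0.03 in input, and at 90 min it was 0.02 in footprints and -0.18 in input. The counts became 12 rises and 13 falls without the 15 min library, against 9.67% of all genes up and 5.44% down. Without the 75 min library they were 12 and 12, against 9.76% and 4.99%. Scaling to total counts gave 12 rises and 49 falls (25.3%), against 27.4% of all genes lower, under a scaling that moved the median of all genes to -0.32.

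The largest early rise was that of Zfp263, a DNA-binding transcriptional regulator. Its input counts were 293 untreated, then 258, 303, 385, 733, 909 and 925 from 15 to 90 min, and 204 at 16 h. Footprints numbered 100, 134, 115, 116, 238, 363 and 385 from untreated to 90 min, and the 16 h library stood at 1.28-fold of the untreated one (95% interval 0.975 to 1.69). Both materials were flat up to 30 min, were highest at 90 min. At 16 h input stood at 0.736-fold of untreated (95% interval 0.612 to 0.883). The fitted rise was 2.26 ± 0.24 (log2, SE, adjusted p = 0.00016) in input and 2.36 ± 0.25 (adjusted p = 0.00011) in footprints, and at 16 h neither was called. The 90 min library stood at 3.47-fold of the untreated one in input (95% interval 3.04 to 3.97, counting error only), a smaller rise than the fitted one.

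Zfp420, whose human counterpart (APAK) is a regulator of p53, had 51, 36, 35, 43, 65, 130, 160 and 93 input counts and 8, 8, 11, 8, 22, 22, 29 and 21 footprints from untreated to 16 h. The rise came late, at 60 to 75 min, and remained at 16 h. It was 2.15 ± 0.26 (adjusted p = 0.00013) in input and 2.29 ± 0.43 (0.006) in footprints up to 90 min, and 1.22 and 1.61 at 16 h. The early footprint call ended without the 90 min library (adjusted p = 0.053) and the one at 16 h without the untreated library (adjusted p = 0.11) or with DESeq2 (adjusted p = 0.13). Zfp568, the KRAB repressor of a placental Igf2 transcript in mouse embryos, had 125, 141, 180, 238, 382, 363, 272 and 159 input counts and rose by 1.75 in input and 1.90 in footprints. Zfp719 rose by 1.86 and 1.68, and Zfp655 by 1.34 and 0.87. Zfp568 and Zfp719 carry KRAB matches and were not called at 16 h, whereas Zfp655 was called in both materials (1.23 and 1.01). The early footprint call of Zfp655 ended without the 15 min or the 75 min library (adjusted p = 0.075 in each). Zfp595 rose in footprints only, with 18 at 90 min and 3 untreated (2.28 ± 0.52, adjusted p = 0.023), a call that ended on leaving out the untreated or the 75 or 90 min library (adjusted p = 0.08 to 0.14).

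**Figure D4:**
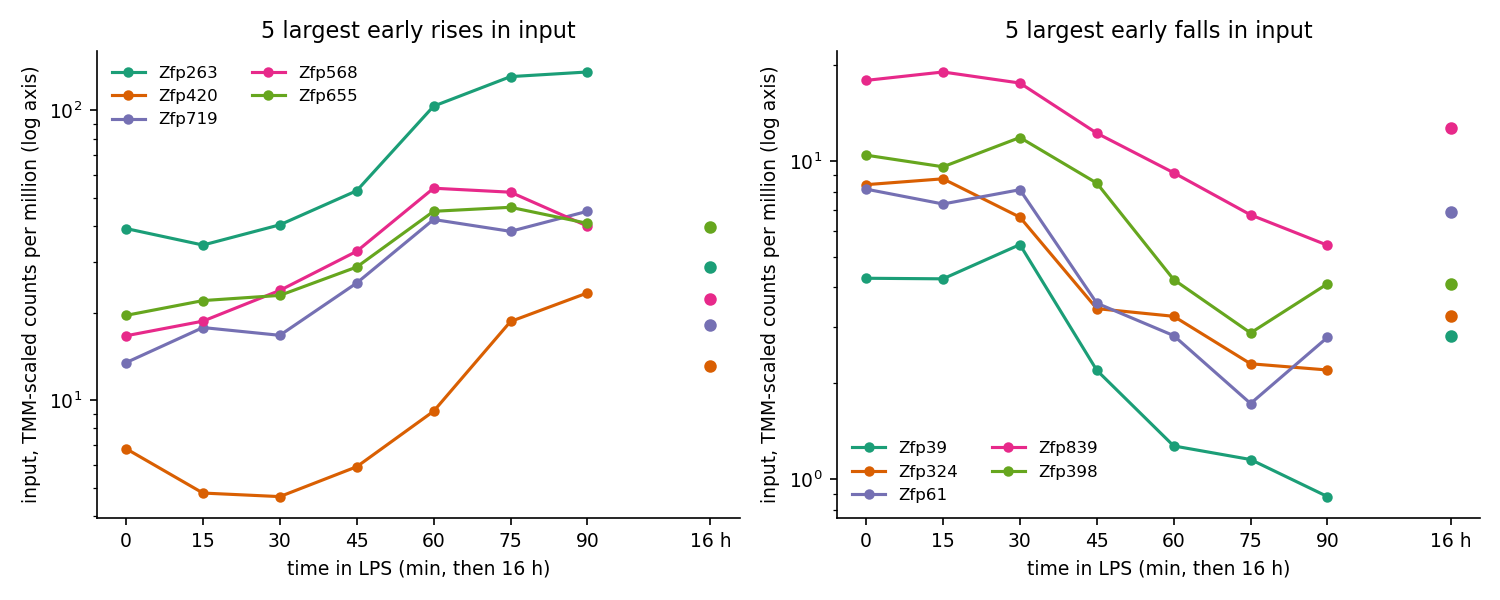
Input level (TMM-scaled CPM, log axis) by time in LPS of the 5 members with the largest early rises (left) and the 5 with the largest early falls (right); each point is 1 library. Zfp263 reaches 3.47-fold of untreated at 90 min and 0.736-fold at 16 h, and all 5 fallers lie below their untreated level from 60 min on.

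Zfp39, a KRAB gene on chromosome 11, fell most. It had 32, 32, 41, 16, 9, 8, 6 and 20 input counts from untreated to 16 h, so the level dropped between 30 and 60 min and stood higher again at 16 h. The fitted fall was -2.95 ± 0.52 (log2, adjusted p = 0.005), and the 90 min library was 4.86 times lower than the untreated one (95% interval 2.00 to 14.2). Its footprints, 11, 17, 26, 6, 13, 6, 11 and 7, were not called (adjusted p = 0.66). Zfp324 had 63, 66, 50, 25, 23, 16, 15 and 23 input counts and remained low, with -2.37 ± 0.33 up to 90 min (adjusted p = 0.001) and -1.45 ± 0.36 at 16 h (0.0049).

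Zfp61, also with KRAB, had 61, 55, 61, 26, 20, 12, 19 and 49 input counts and 17, 32, 31, 16, 1, 7, 0 and 13 footprints. Its input fell by 2.23 ± 0.42 (log2, adjusted p = 0.007) and was not called at 16 h. Footprints at 90 min were at least 4.67 times lower than untreated, taking a floor of 3 counts per library, and the early footprint call (adjusted p = 0.01) ended without the 90 min library (0.075). Zfp839, with 134, 143, 132, 89, 65, 47, 37 and 90 input counts, fell by 2.01 in input and 1.36 in footprints, the second call being lost without the 75 min (adjusted p = 0.054) or 90 min library (0.13). Zfp398 fell by 1.95 and 1.67 and was still lower in input at 16 h (-1.33). Its footprint call ended without the 90 min library (adjusted p = 0.086) and the 16 h call without the untreated one (0.087).

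Zfp217, a subunit of corepressor complexes with the demethylase Lsd1, was the most abundant of the strong fallers. Its input was 331, 356, 346, 240, 113, 136, 140 and 255 counts and its footprints were 203, 257, 325, 189, 76, 67, 81 and 162 from untreated to 16 h. Both materials were lowest between 60 and 90 min and had partly returned at 16 h. The fall was -1.60 ± 0.29 (adjusted p = 0.0063) in input and -1.93 ± 0.44 (0.018) in footprints, the footprint call being lost without the 15 min (0.055) or 75 min library (0.077) and with DESeq2 (0.11).

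Among the largest footprint falls, Zfp40 had 6 footprints at 90 min and 19 untreated (-2.53 ± 0.58, adjusted p = 0.016), Zfp3 4 and 16 (-2.48 ± 0.69, 0.043), Zfp229 4 and 19 (-2.32 ± 0.48, 0.013) and Zfp41 5 and 26 (-2.27 ± 0.42, 0.0063). Such counts are small, and the calls were fragile. Leaving out 1 library at a time ended the call of Zfp40 (75 min, adjusted p = 0.069), of Zfp3 (60, 75 or 90 min, 0.058 to 0.12) and of Zfp229 (75 or 90 min, 0.052 to 0.079), and DESeq2 did not call Zfp41 (0.079). Zfp40 and Zfp3 were also called lower in input (-1.38 and -1.54), Zfp40 not without the untreated, 15, 45 or 75 min library (0.051 to 0.11), and Zfp3 not with DESeq2 (0.1) or with a curve linear in minutes (0.063) or in their square root (0.056).

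Of 21 tested members with a known function, 6 rose and 2 fell in input over 0 to 90 min (38.1%, against 26.2% of all genes), and 2 rose and 2 fell in footprints (19%, against 20.5%). Zfp622 rose by 0.86 ± 0.16 in input (log2, adjusted p = 0.0074) and 0.92 ± 0.11 in footprints (0.0004), with 559 input counts at 90 min and 391 untreated. Zfp91 rose in input by 0.56 ± 0.08 (0.0017), with 1532 counts at 90 min and 1204 untreated, while its footprints, 548 and 565, were not called (0.055). Zfp281, Zfp335, Zfp445 and Zfp593 rose by 0.53, 0.43, 0.41 and 0.81 in input, and each of these calls was lost on leaving out single libraries. The ranges of the adjusted p were 0.051 to 0.16 for Zfp281 (75 or 90 min), 0.054 to 0.17 for Zfp335 (15, 75 or 90 min), 0.052 to 0.09 for Zfp445 (15, 75 or 90 min) and 0.055 to 0.11 for Zfp593 (untreated, 15, 45, 75 or 90 min). Zfp346 fell by 0.66 in input and 0.89 in footprints, and its input call ended without any 1 of 6 libraries (untreated, 15, 45, 60, 75 or 90 min, 0.054 to 0.14) and its footprint call without the untreated, 15 or 75 min library (0.064 to 0.093). Zfp451 was called higher in footprints (0.41), a call lost without any 1 of the untreated, 15, 45, 60, 75 and 90 min libraries (0.054 to 0.64). Beside Zfp346, the member of the 21 called lower in both materials was Zfp217, described above. Zfp646 and Zfp251 were not among the 21. Zfp646, with 414 input counts at 90 min and 635 untreated, fell by 0.55 in input (0.008) and Zfp251, with 49 and 121, by 1.64 (0.0034). Zfp106, Zfp143, Zfp148, Zfp207, Zfp326, Zfp384, Zfp410, Zfp592, Zfp598, Zfp687, Zfp809 and Zfp830 were not called in either material over 0 to 90 min by edgeR's quasi-likelihood test.

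At 16 h the class again held more falls than rises, but fewer calls than other genes. In input 21 of 194 members were higher than the fitted untreated value and 40 were lower (edgeR quasi-likelihood test), against 28.6% and 27.0% of all genes (55.6% either way), which makes 10.8% and 20.6% of the members. The median difference was -0.23 (log2) in members and 0.01 in other genes. KRAB members gave 6 higher and 23 lower, the others 15 and 17. Among genes with 60 up to 120 untreated counts, 3 members were higher and 15 lower of 66, against 30.0% and 16.6% of other genes in that bin. At 30 up to 60 counts 3 were higher and 7 lower of 44, against 31.6% and 12.4%. At 120 up to 240 counts 8 were higher and 8 lower of 45, against 29.7% and 23.4%. At 240 counts and over 7 were higher and 10 lower of 39, against 27.0% and 35.2%. The single 16 h library is assumed to vary like the earlier ones. Without the untreated library the counts were 15 and 21, of them 3 and 12 in KRAB members. Of all genes 20.0% were then higher and 17.9% lower. Scaling to total counts gave 14 higher and 63 lower, against 22.3% of all genes higher and 35.3% lower.

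Footprints at 16 h were higher in 14 members and lower in 16, against 25.9% and 24.2% of all genes (50.1% either way). The median was -0.10 (log2) in members and 0.01 in other genes. At 30 up to 60 untreated input counts 3 members were higher and 2 lower of 44, against 33.0% and 7.58% of other genes. At 60 up to 120 counts 3 and 4 of 66 were, against 29.2% and 12.2%. At 120 up to 240 counts 3 and 5 of 45 were, against 29.2% and 19.1%. At 240 and over 5 and 5 of 39 were, against 22.4% and 33.6%. Scaling to total counts gave 9 and 27, against 22.0% of all genes higher and 29% lower. That scaling moved the median of all genes to -0.1. In both materials 11 members (5.67%) were higher at 16 h and 15 (7.73%) were lower, against 22.2% and 19.8% of all genes. No call was made in any early or 16 h test of input or footprints for 82 of the 194 tested members (42.3%). Among all genes this share was 26.9%, not matched for input counts. The early and 16 h comparisons share the untreated library and the fitted curve. Zfp287 and Zfp346 were called lower early and higher at 16 h in input (1.03% of the tested members, against 1.13% of all genes).

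Zfp287 was lower early and higher at 16 h. Its input was 73, 82, 86, 52, 34, 43, 39 and 185 counts from untreated to 16 h and its footprints were 18, 24, 10, 15, 13, 22, 12 and 65. The 16 h library stood above all earlier ones in both materials, 2.68-fold above untreated in input (95% interval 2.03 to 3.56) and 3.89-fold in footprints (2.28 to 6.97). The differences were 1.32 ± 0.28 (adjusted p = 0.002) and 1.83 ± 0.41 (0.0032), but both calls ended without the untreated library (0.25 and 0.19), and the early fall of -1.15 in input ended without the 15, 45, 75 or 90 min library (0.068 to 0.12). The second reversal, in Zfp346 (0.49 at 16 h), ended without any 1 of the untreated, 15, 60, 75 and 90 min libraries (0.058 to 0.43).

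Zfp513, whose human counterpart is linked to retinal degeneration, was flat up to 90 min and high at 16 h. It had 65, 56, 49, 51, 53, 47, 69 and 159 input counts and 39, 32, 48, 29, 26, 30, 35 and 88 footprints, and differed by 1.44 ± 0.20 in input (log2, adjusted p = 0.00012) and 1.23 ± 0.32 in footprints (0.0076). The footprint call ended without the untreated library (0.19). Zfp516, an activator of Ucp1 in mouse brown fat, had 94 footprints at 16 h and 36 untreated (1.51 ± 0.25, adjusted p = 0.00035) and was higher in input by 0.78. Zfp593 was higher by 0.99 in input and 0.65 in footprints. Zfp335, with 410 input counts at 16 h and 266 untreated, was higher by 0.80 and 1.09. Zfp653 was called higher in footprints (1.20), and lost that call without the 15 min or 60 min library (0.057 to 0.095) and with DESeq2 (0.13). Zfp91 remained higher in input (0.46) and Zfp622 in footprints (0.41), the call of Zfp622 being lost without the 15 min library (0.056), while that of Zfp281 in input (0.41) ended without the untreated, 45, 60, 75 or 90 min library (0.059 to 0.51).

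Zfp296, Zfp606 and Zfp652 were the 3 members lower in both materials early and at 16 h, a set chosen after their values were seen. This pattern was held by 1.55% of the tested members, against 2.48% of all genes. Zfp296, a cofactor of reprogramming to pluripotency in the mouse, had 75, 70, 100, 51, 29, 32, 25 and 19 input counts and 68, 83, 98, 69, 42, 41, 26 and 26 footprints from untreated to 16 h. It differed at 16 h by -1.89 ± 0.49 in input (log2, adjusted p = 0.0068) and -1.38 ± 0.35 in footprints (0.0068). Zfp606, with KRAB, had 110, 111, 114, 68, 59, 52, 55 and 46 input counts and 42, 36, 30, 12, 11, 11, 11 and 9 footprints, and the footprint difference was -2.24 ± 0.48 (0.0024). Zfp652, in humans a partner of the corepressor CBFA2T3, had 283, 279, 301, 301, 247, 170, 160 and 99 input counts and 78, 92, 93, 76, 63, 32, 40 and 17 footprints. It declined later than the other two, from 60 min on, and differed by -1.31 ± 0.19 in input (0.00012) and -2.18 ± 0.40 in footprints (0.00077) at 16 h. Its early footprint call ended without the 15 min library (0.063).

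Other large 16 h falls were those of Zfp808 (8 input counts at 16 h and 37 untreated, -1.97 ± 0.47, adjusted p = 0.0041), Zfp651 (14 and 53, -1.77 ± 0.43, 0.0048), Zfp101 (37 and 124, -1.70 ± 0.26, 0.00021) and Zfp41 (8 and 31, -1.69 ± 0.48, 0.011) in input by edgeR's quasi-likelihood test. Without the untreated library Zfp808 (0.08) and Zfp41 (0.17) were not called. Only 26.9% of the windows of Zfp808 are unique to it. In footprints Zfp629 had 9 at 16 h and 38 untreated (-2.09 ± 0.45, 0.0024) and Zfp951 13 and 44 (-2.01 ± 0.60, 0.015). Of the abundant members, Zfp207 had 706 input counts at 16 h and 1422 untreated (-0.85 ± 0.09, 9.2e-06), and 920 and 1776 footprints (-0.86 ± 0.13, 0.00024). Zfp706 was lower by 1.01 in input and 1.32 in footprints, Zfp326 by 1.11 in footprints alone, with 241 at 16 h and 560 untreated (0.00017), Zfp422 by 0.83 and 0.70, and Zfp646 by 0.71 in input. Zfp410 was lower in input by 0.50, a call that ended on leaving out the untreated library (0.11).

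A set of 5 members, chosen after their values were seen, rose in both materials early and stayed higher in both at 16 h: Zfp110, Zfp330, Zfp420, Zfp617 and Zfp655. They made up 2.58% of the tested members, against 5.05% of all genes with this pattern. Zfp110, in the mouse a partner of the neurotrophin receptor p75, rose by 0.64 and 0.91 early (log2, input and then footprints) and differed by 0.92 and 0.45 at 16 h. Zfp330, a nucleolar protein, had 0.78, 0.76, 0.73 and 0.50 in that order, with calls in every setting tried, but 45.3% unique windows. Zfp617 had 0.66, 0.76, 0.85 and 0.66, with 23.7% unique windows. For Zfp110 the early input call ended without the 15 or 75 min library (adjusted p = 0.064 in each) and the 16 h footprint call without the untreated, 45, 60, 75 or 90 min library (0.058 to 0.28). For Zfp617 the early footprint call ended without the 90 min library (0.089) and the 16 h one without the 15 min library (0.066).

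Ribosome density itself showed no called change in any tested member. Over 0 to 90 min edgeR's quasi-likelihood test called 0 of 194, against 1.25% of all genes, 1.11% higher and 0.136% lower. DESeq2 also called 0 members. Of other genes, 0.572% were called at 30 up to 60 untreated input counts and 0.0832% at 60 up to 120. The shares were 0.167% at 120 up to 240 and 2.13% at 240 and over. Below 240 counts, where most members lay, other genes were thus rarely called too. At an unadjusted p under 0.05, 13 of the 194 members were higher and 6 lower, against 424 and 445 of all 9529 genes. The median size was 0.14 (log2) in members and -0.05 in other genes. At 16 h it was again 0 by both tools, against 0.399% of all genes, 0.304% higher and 0.0944% lower. The median was 0.09 in members and 0.07 in other genes. Unadjusted counts at 16 h were not set against those of all genes and are not read as a change. Small counts widen the error here: the SE of the early change was 0.69 for Zfp39 and 0.45 for Zfp324. A call needs a change well above its SE, so changes of that size, and larger ones too, could go uncalled. Without the 30 min libraries 3 members were called over 0 to 90 min, 2 higher and 1 lower, and 1 at 16 h. Of all genes 1.84% were then higher and 1.31% lower early, and 0.814% and 0.444% at 16 h. The median early size in KRAB members was 0.23, and -0.33 without the untreated libraries.

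The medians by lysate describe the ratio more closely. In KRAB members footprints per input were -1.13 (log2) untreated, -0.80 at 15 and 30 min, -1.08 at 45 min, -0.99 at 60 min, -0.91 at 75 min, -0.85 at 90 min and -0.91 at 16 h. Other genes with 30 up to 240 counts lay between -0.08 and 0.08 throughout. The untreated KRAB median was thus the lowest of the 8. Footprints of KRAB members were higher at 15 min than untreated in 79 of 108, where their input was lower in 62. Whether this belongs to the cells or to the untreated footprint library was not tested. Without the untreated libraries the median early size in footprints was -0.92 in KRAB members, against -0.35 with them.

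Of 30 listed symbols for genes of the corepressor machinery that KRAB proteins recruit, 28 were tested. Tasor and Fam208a among them are names of 1 gene, which was tested as Fam208a. In the first 90 min 4 rose and 2 fell in input (21.4%, against 26.2% of all genes), and 2 rose and 1 fell in footprints (10.7%, against 20.5%). At 16 h 3 were higher and 14 lower in input (28.6% of all genes higher and 27.0% lower), and 1 was higher and 15 lower in footprints (25.9% and 24.2%). Trim28 was not called up to 90 min (-0.03 in input) and differed by -1.27 ± 0.08 in input (log2, adjusted p = 2.1e-07) and -1.09 ± 0.11 in footprints (9.1e-06) at 16 h. The heterochromatin proteins Cbx3 and Cbx5 were lower by 1.62 and 1.54 and the DNA methylation genes Uhrf1 and Dnmt1 by 1.35 and 1.17 in input, while the histone H3.3 chaperone Daxx was higher by 2.40. Setdb1 was not called (-0.17, adjusted p = 0.22). Ribosome density of this list was higher than that of the typical gene in 16 of the 28 and lower in 8, with a median of 0.24. Among all genes 43.7% were higher and 41.5% lower, and among the 194 zinc finger mRNAs 12 and 161. The list was chosen with earlier results of these data known, and its counts are a description.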

How the data were processed

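The deposited table held counts per gene for 16 libraries, made by the authors with Bowtie 0.12.8 on mm10, per the submitters' processing notes. The authors also deposited signal values, which equal those counts over 1 scaling factor per library (DESeq2 1.18.1 in those notes), with a largest relative spread of 1.0e-14 about that relation. They were used only for this check. No source used here states which features and strand were counted, how reads with several matches were treated, or how the near-equal totals arose. Of columns of other samples, 0 were found.

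A gene was tested if 4 or more of the 8 libraries of each material held 10 counts or more. Tests were run with edgeR 4.0.16 (limma 3.58.1, R 4.3.3), TMM scaling, quasi-likelihood tests and Benjamini-Hochberg adjustment over all genes, with a threshold of 0.05. Each material was fitted with a quadratic in minutes and a 16 h term, so the scatter about the curve is the error. Ribosome density was fitted over both materials with the time point as a block, since input and footprints of a time come from 1 lysate. Every adjusted p in the text is from these edgeR fits unless DESeq2 (1.42.0) is named. Medians by time used a pseudocount of 0.5 counts, and intervals (95%) cover counting error only.

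Fingers, KRAB domains, coding shares and windows of 29 bases came from the longest coding transcript per gene in GENCODE M21 (GRCm38, the build mm10). KRAB domains were found with a profile of 145 seed windows at an E-value of at most 0.001. The genes named are the 5 largest called rises and falls of each comparison and members with a known function. Zfp110, Zfp330 and Zfp617 were named after their values were seen. The members and lists were chosen with earlier results of these data known. Alternatives were total-count and DESeq2 scaling, DESeq2, other filters and curves, no block, and leaving out each library. The subsets by unique windows and by exon overlap were added after seeing the data.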

Additional observations from a re-analysis of the deposited data

How the results depend on the processing

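The numbers of members called are given here for input and footprints over 0 to 90 min (75 and 39), at 16 h (61 and 30), for density change (0 and 0) and for density level (173). DESeq2 gave 43 and 24 early and 40 and 19 at 16 h. Counting only the 111 tested members with at least 100 untreated input counts, in place of 194, gave 46 in early input, 38 in input at 16 h and 101 in density level. Scaling to total counts gave 61 in early footprints and 1 in early density. Leaving out each library in turn gave 43 to 79 in early input, 24 to 43 in early footprints, 36 to 65 in input at 16 h, 24 to 36 in footprints at 16 h, 0 to 3 in early density, 0 to 1 in density at 16 h and 168 to 172 in density level. The causes were not tested. Without the time point as a block (no replicate block), 171 members were called in density level and 0 in either density change. Of the values for named genes, 2 turned direction, both under total counts: Zfp451 in early footprints (-0.19, adjusted p = 0.11) and Zfp384 in density level (-0.04, adjusted p = 0.61). Of 164 pairs of a named gene and a comparison, 110 were called in every setting. With at least 70% unique windows the counts were 69, 35, 55, 26 and 156 (early input and footprints, input and footprints at 16 h, density level), and without exon overlap 61, 32, 50, 23 and 138. With 1 library per time and material, low counts limit the smaller members.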
